A study of Mus musculus with 18 samples.

Results

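The transcripts described here are 8 RefSeq transcripts of cell adhesion and junction genes, measured in 2-cell mouse embryos, a stage that precedes compaction. They were picked by identifier: Cdh1 (NM_009864), Ctnnb1 (NM_007614), Ctnna1 (NM_009818), Tjp1 (NM_009386), Gja1 (NM_010288), Vcl (NM_009502), Itgb1 (NM_010578) and Ezr (NM_009510). All 8 were present among the 26823 transcripts of the count files, and all 8 were among the 15333 that had at least 10 counts in at least 3 embryos. The study asked whether the chromatin that a father's sperm carries alters gene expression in his embryos, and sequenced 18 individual embryos. Of these, 9 had wild-type fathers (numbers 1, 2 and 3) and 9 had Parg(110)-/- fathers (numbers 6, 7 and 8), with 3 embryos from each father. In Parg(110)-/- males the gene for poly(ADP-ribose) glycohydrolase is disrupted, and part of the enzyme's activity remains. The disruption disturbs the exchange of histones for protamines while sperm are formed. The strain was 129SVE in both groups and the mothers were wild-type, so an embryo of a Parg(110)-/- father was itself heterozygous, and paternal and embryonic genotype cannot be told apart. These embryos are called Parg(110) embryos below, and each embryo is named by its father and its own number (7-2). The 3 embryos of a father share that father and are not fully independent, and the p-values over embryos treat them as if they were.

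Cells of the cleaving mouse embryo are round and only loosely apposed at first, and at compaction they flatten against each other. Flattening depends on E-cadherin, which binds its like on the neighbouring cell and is tied to the actin cortex through beta-catenin and alpha-catenin. Tight and gap junctions, integrins and a polarised cortex with ezrin are put in place around the same time, while much of the RNA present earlier was laid down by the mother in the oocyte.

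Library totals ranged from 2852858 to 13355161 counts in wild-type embryos and from 3560501 to 12497060 in Parg(110) embryos. Values are counts per 1000000 of the file total (CPM), and 3 counts, taken as the limit of detection, were worth between 0.225 and 1.05 CPM. Markers of the oocyte and cleavage-stage embryo were present (8 of 8, with summed levels of 1714 to 3016 CPM in wild-type and 1215 to 4399 CPM in Parg(110) embryos). Of 8 cumulus and granulosa cell markers 5 had a count, with sums of at most 10.9 CPM in wild-type and 11.8 CPM in Parg(110) embryos, and Ptx3, Tnfaip6 and Amh were at 0 in all 18. Sums over 4 oviduct markers reached 7.37 CPM in wild-type embryos and 428 CPM in Parg(110) embryos, the latter in embryo 6-2 through Ovgp1. Ovgp1 was also at 114 CPM in embryo 6-3 and 19.8 CPM in 8-3, against at most 2.77 CPM in wild-type embryos, and Foxj1, a gene of ciliated cells, was at 31.7 CPM in embryo 7-3 and at 0 in the other embryos. Protamine and transition protein transcripts of sperm summed to at most 0.174 CPM. Parg itself (NM_011960) was at 74.7 ± 32.1 CPM (SD, n = 9) in wild-type and 46.4 ± 18.3 CPM (SD, n = 9) in Parg(110) embryos, a difference that was not called (log2 fold change -0.67, edgeR adjusted p = 0.872). CPM gives a share of the file total and not an amount of RNA per embryo.

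The order of abundance was set by CPM per kb of transcript, since longer transcripts collect more counts. As length, that of the gene's longest protein-coding transcript in GENCODE vM1 was used, which may differ from that of the RefSeq transcript. Over 18 embryos the median level was 15.3 CPM per kb for Tjp1, 12.8 for Ctnna1, 10.9 for Ctnnb1 and 7.97 for Cdh1. It was 3.53 CPM per kb for Vcl, 2.59 for Itgb1, 2.34 for Gja1 and 0.0312 for Ezr. The E-cadherin and catenin transcripts and the tight junction scaffold Tjp1 thus held the upper ranks, and the gap junction, matrix adhesion and ezrin transcripts the lower ones. Neighbours in this order were not separated: in 9 of 18 embryos Ctnna1 was above Ctnnb1, in 9 of 18 Itgb1 was above Gja1, and in no neighbouring pair was the first above the second in more than 13 of 18.

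**Figure D1:**
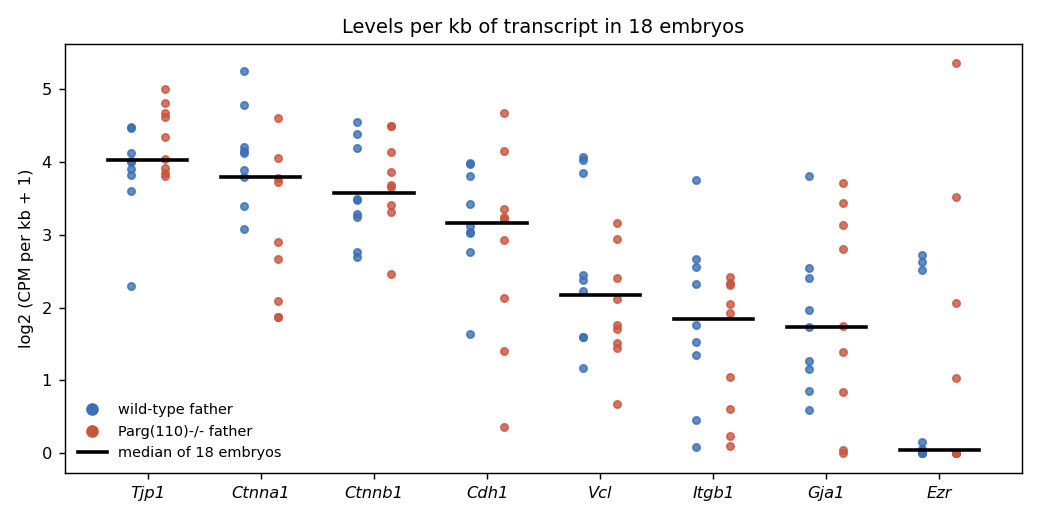
Level of each transcript in 18 embryos, as log2 of (CPM per kb + 1), per kb of the longest protein-coding transcript of its gene. Points are single embryos (wild-type left, Parg(110) right of each name) and bars are medians over 18 embryos. Tjp1 had the highest median, 15.3 CPM per kb, and Ezr the lowest, 0.0312 CPM per kb, and the clouds of neighbouring transcripts overlap.

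The promoters of these genes differ in their CpG content, which is shown as annotation, since the RNA files hold no measurement of the promoters. RefSeq start sites on GRCm38.p6 gave windows for Tjp1, Itgb1, Ctnnb1, Gja1, Vcl and Ezr, each of 250 bases before to 50 bases after the start. The letters CG were counted on 1 strand, as they read the same on both. The Gja1 window held 8 CpGs, a number that 48.6% of 32851 mouse windows reach or pass. Of the 2 Ctnnb1 windows, the first held 46 CpGs, which 1.65% of all windows reach, and the second held 51. Between these lay Itgb1 with 27, Vcl with 30, Tjp1 with 31 and Ezr with 38. The 250 bases before the start are printed for the gene with the fewest CpGs among these and for the first window of the gene with the most, 5′ to 3′ on the plus strand, at chr10:56377050-56377299 and chr9:120933150-120933399 with each CpG in capitals (6 in Gja1 and 35 in Ctnnb1).
Gja1: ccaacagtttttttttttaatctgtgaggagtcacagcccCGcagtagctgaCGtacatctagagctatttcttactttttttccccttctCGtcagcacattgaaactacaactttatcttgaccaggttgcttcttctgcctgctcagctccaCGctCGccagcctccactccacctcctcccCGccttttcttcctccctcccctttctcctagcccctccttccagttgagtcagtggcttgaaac
Ctnnb1: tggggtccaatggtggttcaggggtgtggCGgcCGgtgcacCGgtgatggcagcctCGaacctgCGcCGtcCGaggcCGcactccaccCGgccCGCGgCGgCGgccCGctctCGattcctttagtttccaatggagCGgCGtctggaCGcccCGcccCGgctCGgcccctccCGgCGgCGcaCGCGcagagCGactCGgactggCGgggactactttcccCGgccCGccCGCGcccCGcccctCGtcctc

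The question put to each transcript was whether its level differed between the 9 Parg(110) and the 9 wild-type embryos. No member passed edgeR's quasi-likelihood test at a Benjamini-Hochberg adjusted p below 0.1, and 0 of 15333 transcripts did (0.0%). The smallest adjusted p among the members was 0.872, against 0.334 among all transcripts tested. At an unadjusted p below 0.05 there were 0 members, where 5.8% of all transcripts passed. limma-voom called 0 members and 0 transcripts, and DESeq2 called 0 members and 0.248% of all transcripts (38 of 15333). Of the 8, 4 had a higher and 4 a lower mean in Parg(110) embryos, and the median log2 fold change of the members was 0.05, against -0.02 over all transcripts. The intervals leave room for sizeable differences in most members, so the missed threshold does not show equal levels.

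**Figure D2:**
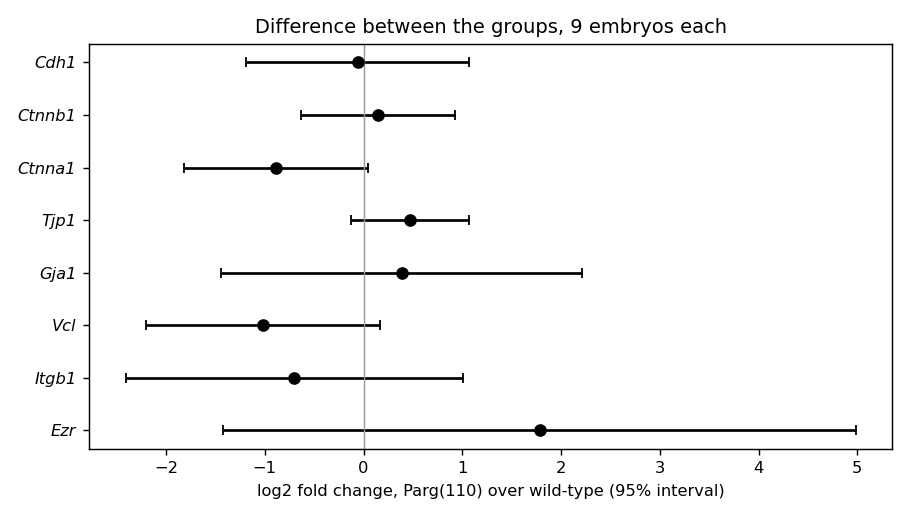
Log2 fold change of Parg(110) over wild-type embryos (points) with 95% intervals from edgeR, 9 embryos a group. All 8 intervals include 0; that of Tjp1 is the narrowest (-0.13 to 1.07) and that of Ezr the widest (-1.42 to 4.99).

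Among the adherens junction genes, Cdh1 encodes E-cadherin and lies on mm9 at chr8:109127251-109194146, plus strand. Its level in wild-type embryos ran from 9.37 over a median of 34.1 to 65.4 CPM. In Parg(110) embryos it ran from 1.28 over a median of 36.5 to 108 CPM. The Parg(110) values enclosed the wild-type range on both sides, with 2 embryos below its lowest and 2 above its highest value. Both extremes came from father 7, whose embryos had 108, 1.28 and 15.03 CPM. In embryo 7-2 only 12 Cdh1 counts were found in a library of 9367261, and the 95% Poisson interval of that value, 0.662 to 2.24 CPM, covers counting error only. The means were 40.3 ± 19.0 and 38.8 ± 33.6 CPM (SD, n = 9 each), with a difference near 0 (log2 fold change -0.06, SE 0.55, 95% interval -1.19 to 1.07, edgeR adjusted p = 0.9997). The sign of so small a difference turned when any 1 of 6 embryos was left out, and it was 0.10 without embryo 7-2. Embryo 6-2 carried the oviduct marker Ovgp1 at 428 CPM, while its Foxj1 and Krt7 were at 0. Its Cdh1 was at 7.31 CPM, and the part of oviduct RNA in these values was not tested.

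Ctnnb1 (chr9:120838334-120869625, plus strand) encodes beta-catenin, which binds the tail of E-cadherin and also acts in Wnt signalling. Wild-type embryos had 19.7 to 81.2 CPM with a median of 36.5, and Parg(110) embryos 16.2 to 78.0 CPM with a median of 42.6. The groups overlapped almost wholly, and only embryo 6-1 lay below the wild-type range. Its highest embryo had 5.002 times the level of its lowest, the smallest such ratio of the 8 members. Means were 43.5 ± 22.4 and 48.1 ± 20.7 CPM (SD, n = 9 each; log2 fold change 0.15, SE 0.38, 95% interval -0.63 to 0.93, edgeR adjusted p = 0.997). By father the means ranged from 29.3 CPM (father 2) to 62.3 CPM (father 8), and fathers of the 2 genotypes alternated in the order. Without father 8 the log2 fold change was -0.08, and without father 2 it was -0.06. A second transcript of the gene (NM_001165902) had the same count in all 18 embryos, so the files do not separate the isoforms. Of the 5099 exon bases of Ctnnb1, 240 are shared with Ulk4 on the opposite strand, a limit described for Vcl below.

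Ctnna1, the gene of alpha-catenin, which links the cadherin complex to actin, lies at chr18:35278542-35414427 on the plus strand and had the clearest shift of the 8. Its wild-type level ran from 27.6 over a median of 60.3 to 137 CPM. Parg(110) embryos had 9.82 CPM at the lowest, 23.9 at the median and 86.1 at the highest. Of the 9 Parg(110) embryos, 8 lay below the wild-type median and 5 below the lowest wild-type embryo, while none lay above the highest. The 3 lowest were embryos 7-2 (9.82 CPM), 8-1 (9.83 CPM) and 7-3 (12.1 CPM). Means were 64.6 ± 33.6 and 34.6 ± 26.3 CPM (SD, n = 9 each), a log2 fold change of -0.89 (SE 0.45, 95% interval -1.82 to 0.04, edgeR adjusted p = 0.872).

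An exact two-sided permutation test over embryos gave Ctnna1 a p of 0.048, or 0.933 after Benjamini-Hochberg adjustment over all 15333 transcripts. It was the only member below 0.05 in this test, where 5.33% of all transcripts were, and 1 of 8 is not read as a result about the members. Leaving out 1 embryo at a time, an alternative chosen after seeing the data, moved this permutation p between 0.0104 (without embryo 8-2) and 0.0947 (without wild-type embryo 1-2), and it stayed below 0.05 in 6 of 18 cases. By father, the Parg(110) means of 29.6, 26.5 and 47.7 CPM were all below the wild-type means of 82.6, 48.9 and 62.2 CPM. That arrangement gives the smallest p that 3 against 3 fathers allow, 0.1 by exact permutation. It was found in the same direction for 5.87% of all transcripts and for 1 of the 8 members.

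Vcl (chr14:21748655-21852895, plus strand) encodes vinculin, an actin-binding protein of cadherin and integrin adhesions. Wild-type embryos had 6.51 to 82.6 CPM with a median of 21.9, and Parg(110) embryos 3.10 to 41.7 CPM with a median of 12.4. The highest values, of 69.7, 79.6 and 82.6 CPM, were in wild-type embryos 2-2, 2-3 and 1-3, above all Parg(110) embryos, and the other values overlapped. Means were 36.0 ± 31.6 and 18.1 ± 12.8 CPM (SD, n = 9 each; log2 fold change -1.01, SE 0.57, 95% interval -2.20 to 0.17, edgeR adjusted p = 0.891), and an exact permutation test gave p = 0.142. The wild-type fathers themselves spread from 13.5 CPM (father 3) to 57.0 CPM (father 2), and the Parg(110) fathers from 13.2 to 20.8 CPM. Without father 2 the log2 fold change was -0.53. Of the 5229 exon bases of Vcl, 2087 are shared with Ap3m1 on the opposite strand. The study built its libraries from double-stranded cDNA, so reads in these bases cannot be assigned by strand. Part of these counts may therefore belong to Ap3m1.

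Tjp1 (chr7:72441051-72516125, minus strand), which encodes the tight junction scaffold ZO-1, moved the other way. Its wild-type level ran from 27.5 over a median of 105 to 150.4 CPM, and its Parg(110) level from 91.8 over a median of 135 to 218 CPM. Of the Parg(110) embryos 4 lay above the highest wild-type embryo, namely 6-3 and all 3 embryos of father 8, and none below the lowest. The low end of the wild-type range was 1 embryo, 3-2, since the next had 78.1 CPM. Means were 102 ± 37.0 and 142 ± 46.5 CPM (SD, n = 9 each), a log2 fold change of 0.47 (SE 0.29, 95% interval -0.13 to 1.07, edgeR adjusted p = 0.913).

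The exact permutation test over embryos gave Tjp1 a p of 0.064, and between 0.0373 and 0.127 when 1 embryo was left out. The Parg(110) fathers' means, at 119.6, 114 and 191 CPM, were all above the wild-type means of 100.1, 113 and 93.6 CPM, again the smallest p of 0.1. That order was found for 4.27% of all transcripts and for 1 of the 8 members. Fathers 7 and 2 differed by less than the spread of either father's embryos, and without father 8 the log2 fold change was 0.21. Counts of NM_001163574, another Tjp1 transcript, differed from these in 4 embryos and by at most 13 counts.

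Gja1 (chr10:56097106-56110225, plus strand) encodes connexin 43, a gap junction channel protein. Its level in wild-type embryos ran from 1.60 over a median of 7.21 to 40.1 CPM, and in Parg(110) embryos from 0 over a median of 7.31 to 37.6 CPM. The medians were nearly equal and the ranges overlapped, but embryo 7-1 had 0 counts and embryo 7-2 had 1, below every wild-type embryo. For the 0 counts of embryo 7-1 the 95% Poisson interval reached 0.731 CPM, and 3 counts would be 0.594 CPM. The third embryo of that father, 7-3, was the highest Parg(110) embryo. Means were 10.8 ± 11.95 and 14.0 ± 14.1 CPM (SD, n = 9 each; log2 fold change 0.39, SE 0.89, 95% interval -1.44 to 2.21, edgeR adjusted p = 0.994), and the limma-voom fit gave -0.52. Connexin 43 is also abundant in cumulus cells, whose summed markers are given above, and their part in the Gja1 values was not tested.

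Itgb1 (chr8:131209554-131257100, plus strand) encodes the integrin beta 1 chain, which pairs with many alpha chains in receptors for matrix. Wild-type embryos had 0.225 to 47.3 CPM with a median of 9.08, and Parg(110) embryos 0.278 to 16.6 CPM with a median of 10.7. The lowest value of each group rested on 2 counts, in embryos 3-3 and 8-3, and the highest wild-type value came from embryo 2-3, the library with the lowest total. Means were 13.9 ± 14.4 and 8.53 ± 6.74 CPM (SD, n = 9 each; log2 fold change -0.70, SE 0.83, 95% interval -2.41 to 1.00, edgeR adjusted p = 0.971). Within father 6 the 3 embryos were close to each other, at 12.003, 16.6 and 15.1 CPM, whereas father 8 had 10.7, 0.697 and 0.278 CPM. Without wild-type father 2 the log2 fold change was -0.01.

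Ezr (chr17:6942390-6987133, minus strand) encodes ezrin, which ties the membrane to cortical actin and marks the outer face of polarised blastomeres. It was found in some embryos and not in others. No Ezr count was found in 3 wild-type and 5 Parg(110) embryos, and only 3 wild-type (1-2, 3-1 and 3-2) and 4 Parg(110) embryos (7-1, 7-2, 7-3 and 8-1) had 10 or more. Wild-type levels ran from 0 over a median of 0.123 to 17.7 CPM, and Parg(110) levels from 0 over a median of 0 to 125 CPM. Father 6 gave 3 embryos at 0, where 3 counts would be 0.24 to 0.314 CPM, and father 7 gave 3.31, 32.9 and 125 CPM. The groups overlapped in their zeros and low values, and 2 Parg(110) embryos lay above the wild-type range. Means were 5.51 ± 8.15 and 19.1 ± 41.3 CPM (SD, n = 9 each; log2 fold change 1.78, SE 1.55, 95% interval -1.42 to 4.99, edgeR adjusted p = 0.966). That value rested on father 7: without his embryos the log2 fold change was -1.81, and without embryo 7-3 alone it was 0.07. Embryo 7-3 was also the embryo with Foxj1 (31.7 CPM), while its Ovgp1 and Krt7 were at 0, and the part of RNA from other cells in its Ezr value was not tested.

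**Figure D3:**
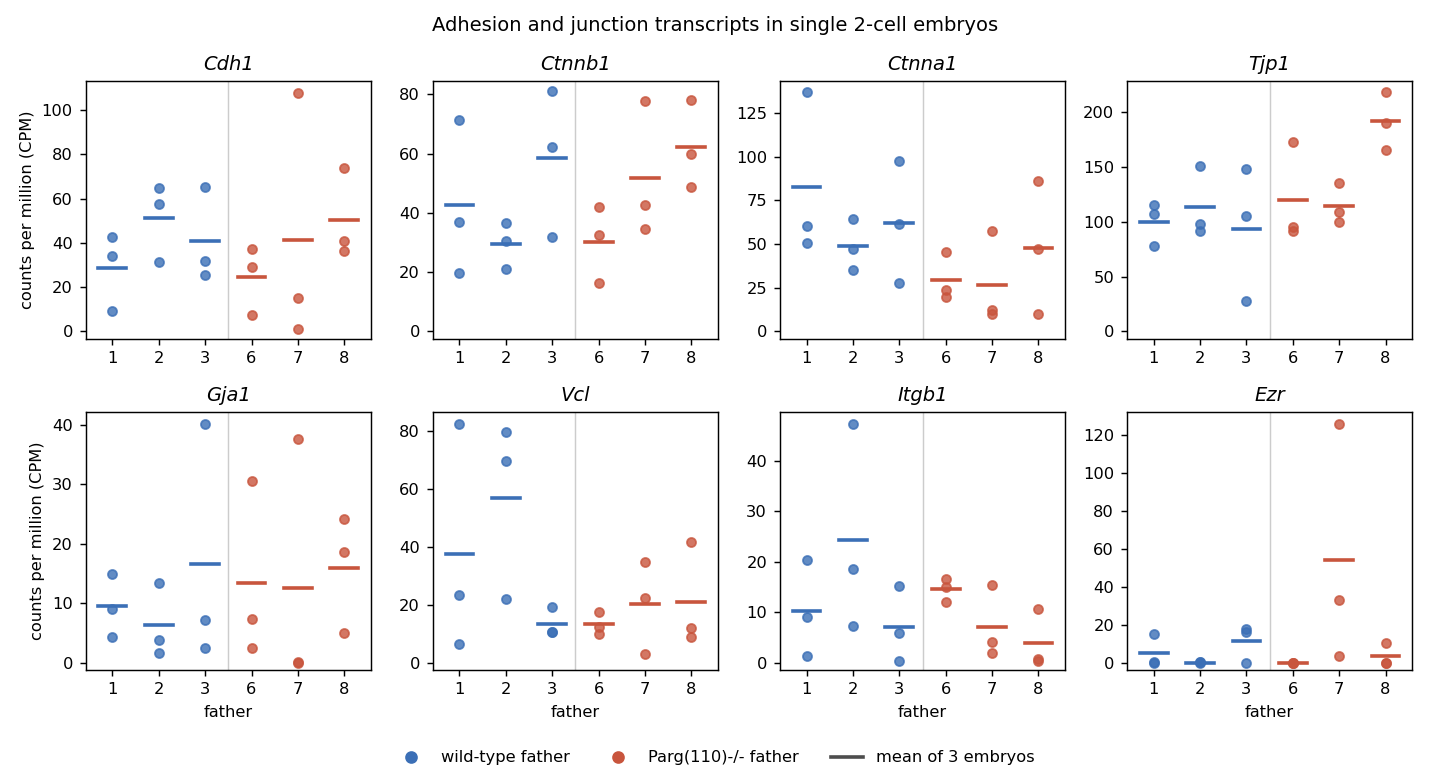
CPM of each transcript in every embryo (points), by father; blue marks wild-type fathers 1, 2 and 3, red Parg(110)-/- fathers 6, 7 and 8, and bars are means of 3 embryos. The red bars of Ctnna1 (26.5 to 47.7 CPM) lie below the blue ones (48.9 to 82.6 CPM), those of Tjp1 lie above, and embryos of 1 father are often as far apart as embryos of different fathers.

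The spread between embryos was wide throughout. The coefficient of variation of a member within a group ran from 32.9% (Tjp1, Parg(110)) to 217% (Ezr, Parg(110)), where the median over all transcripts tested was 95.1% in wild-type and 106.8% in Parg(110) embryos. Tjp1, Ctnnb1, Ctnna1, Vcl and Cdh1 lay below these medians in both groups. Ezr lay above them in both groups. The correlation within fathers, estimated by limma over all transcripts, was -0.0146.

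The 3 embryos of each Parg(110)-/- father were also set against all wild-type embryos, and these 3 comparisons share their 9 controls. Of 24 tests (8 members, 3 fathers) edgeR called 0, and it called 0.00696% of all transcripts for father 6, 0.0% for father 7 and 0.0% for father 8. Unadjusted p-values below 0.05 were found in 3 of the 24 tests (12.5%), where 8.29% of all tests of the 3 comparisons had one. They were Ezr in father 6, at 0 in all 3 embryos (edgeR adjusted p = 0.690), Ezr in father 7, which was higher with a log2 fold change of 3.29 (SE 1.51, edgeR adjusted p = 0.559), and Tjp1 in father 8, higher by 0.90 (SE 0.39, edgeR adjusted p = 0.556). Among the Parg(110)-/- fathers, Ezr thus stood at opposite ends in fathers 6 and 7, and the difference between these fathers was not tested. Wild-type father 2 was also near 0 for Ezr, with a mean of 0.0659 CPM.

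Single Parg(110) embryos were then each set against the 9 wild-type embryos, as the study did, with the spread taken from the wild-type embryos alone. Of 72 tests edgeR called 0, where it called 0.0585% over all transcripts and embryos. Unadjusted p-values below 0.05 were found in 9 tests (12.5%), where 5.72% of all tests passed; 8 were lower and 1 higher. The members share embryos and the embryos share controls, so these tests are not independent. The share of lower ones over all transcripts in these edgeR tests is not given here, and the direction of the 9 is not read as a trait of the members. Of the 9, 4 were in embryo 7-2, in which Cdh1 (log2 fold change -4.91, SE 1.41, edgeR adjusted p = 0.278), Ctnna1 (-2.67, SE 1.03), Gja1 (at 1 count) and Vcl (-3.50, SE 1.66) had low values. The same embryo had ordinary levels of Tjp1 (99.2 CPM), Ctnnb1 (34.7 CPM) and Itgb1 (15.4 CPM). Its library was not shallow, with 9367261 counts, but it had the lowest number of detected transcripts in its group, 12064, and 8.47% of all its transcripts had an unadjusted p below 0.05, the highest share of the 9 embryos (the lowest was 3.96%). The part of this in the low values was not tested. The remaining tests were Ctnna1 in embryos 7-3 and 8-1, Cdh1 in 6-2, Gja1 in 7-1, all lower, and Ezr in 7-3, higher. DESeq2, unlike edgeR, called Ctnna1 in embryos 7-2, 7-3 and 8-1 and Gja1 in 7-1 and 7-2. It also called Cdh1 (log2 fold change -4.87) and Vcl in 7-2 and Itgb1 in 8-3. All were lower, as were most of its calls over all transcripts in these comparisons, whose shares are given below.

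**Figure D4:**
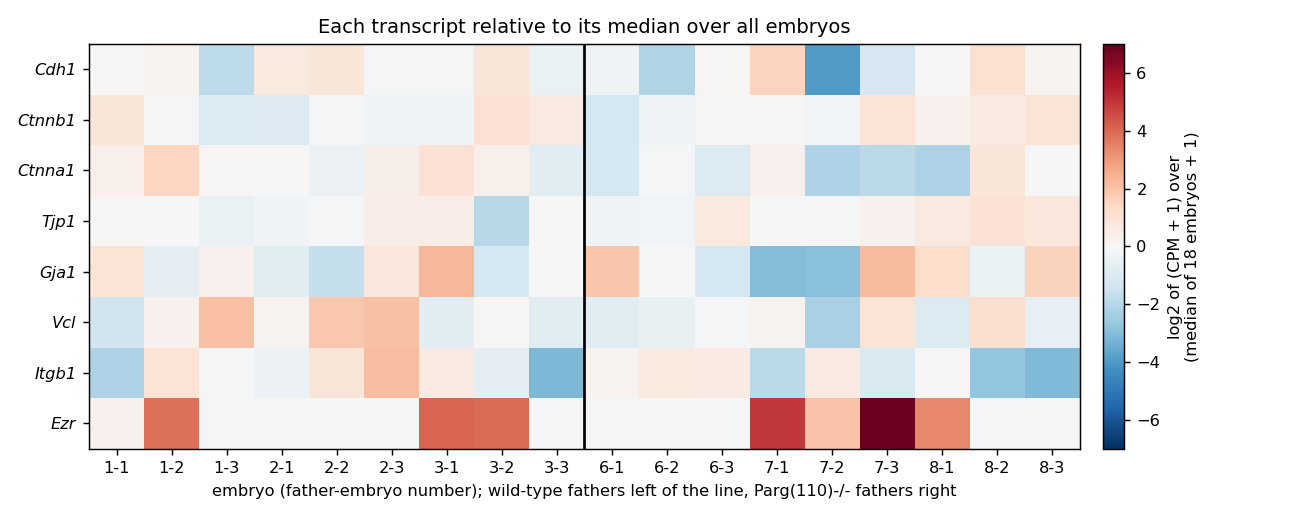
Each transcript in each embryo, as log2 of (CPM + 1) over (median CPM of 18 embryos + 1); blue is below and red above the median, and the line parts embryos of wild-type (left) from those of Parg(110)-/- fathers (right). Embryo 7-2 is low in Cdh1 (1.28 CPM), Ctnna1 (9.82 CPM), Vcl (3.10 CPM) and Gja1 (0.107 CPM), and Ezr is above the median in 7 embryos with 10 or more counts, among them all 3 of father 7.

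The remaining genes of these structures were taken from a list of 74 adhesion, junction, cortex and polarity genes, all found in the files, of which 66 had enough counts for the test. edgeR called 0 of 66, and DESeq2, which called 0.248% of all transcripts, also called 0. An unadjusted edgeR p below 0.05 was found for 2, where 5.8% of all transcripts had one. Over the 66 genes, log2 fold changes were positive in 37 and negative in 29, with a median of 0.16 against -0.02 over all transcripts. Of all transcripts tested 49.0% had a positive one, and counts of direction were not tested. The genes not tested for low counts included Cldn3, Cldn4, Gjb5, Dsg2, Pkp2, Itga5 and Parva, and Gjb5 had no count in any embryo.

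Both transcripts with an unadjusted p below 0.05 belong to matrix adhesion and had higher values in Parg(110) embryos. Itga6, the integrin alpha 6 chain, a partner of the beta 1 chain in laminin receptors, ran from 62.3 over a median of 173 to 300.2 CPM in wild-type and from 160.4 over 293 to 595 CPM in Parg(110) embryos. Of the Parg(110) embryos 6 exceeded every wild-type embryo other than 2-1, and the ranges overlapped (log2 fold change 1.00, SE 0.30, edgeR adjusted p = 0.334). Ptk2, which encodes focal adhesion kinase, ran from 35.7 over 128.5 to 189.9 CPM in wild-type and from 108 over 223 to 369 CPM in Parg(110) embryos (log2 fold change 0.89, SE 0.33, edgeR adjusted p = 0.614).

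By structure, 9 of 11 adherens junction genes had positive log2 fold changes, where 49.0% of all transcripts did, and their median was 0.39. Nectin2 (3.28, SE 1.86) and Vezt (-2.57, SE 1.62) were nearest to the threshold in either direction. The Nectin2 value rested on embryo 8-2, with 49.2 CPM: 7 of 9 Parg(110) embryos were at 0, and without 8-2 their mean was 0.740 CPM, against 0.629 CPM in wild-type embryos. Vezt was at 0 in 4 wild-type and 6 Parg(110) embryos. Of 8 tight junction genes 3 were positive and 5 negative, with Tjp3, a relative of ZO-1, at -1.38 (SE 1.08), or -0.29 without wild-type embryo 1-2. The 5 include Cgn at -0.0031 and Marveld2 at -0.0017. Of 4 connexin genes 2 were positive and 2 negative, with Gja4 at 1.90 (SE 1.52) and Gjb2 at -3.28 (SE 1.72). Both were near the floor: Gja4 was at 0 in 5 wild-type and 4 Parg(110) embryos, and Gjb2 in 6 and 7. Of 4 desmosomal genes 3 were positive, with desmoplakin (Dsp) at 1.67 (SE 1.28; 0.28 without embryo 6-1) and Pkp4 at -0.11 (SE 0.24).

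Of 6 integrin genes only Itga6 was positive, and Itgb3 had the smallest p among the others at -1.46 (SE 1.02). Of 13 focal adhesion genes 9 were positive, and zyxin (Zyx) was at -3.15 (SE 1.65). Zyx was at 0 in 4 wild-type and 6 Parg(110) embryos. The ezrin relatives and cortex genes divided into 6 positive and 6 negative, with moesin (Msn) at 2.75 (SE 1.52) and Myo10 at -0.84 (SE 0.69). Each rested on 1 library: Msn was at 202 CPM in embryo 7-3 and its log2 fold change was 0.21 without it, and Myo10 was at 211 CPM in wild-type embryo 1-1 and turned to 0.68 without it. The third member of the ezrin family, radixin (Rdx), was abundant and nearly level, at 543 CPM in wild-type and 547 CPM in Parg(110) embryos (means; log2 fold change 0.01, SE 0.20), whereas Ezr had at most 3 counts in 10 of 18 embryos. Of 8 polarity genes 4 were positive and 4 negative, with Pard3 at 0.26 (SE 0.26; -0.0048 without embryo 7-1) and the atypical kinase C gene Prkcz at -1.86 (SE 1.56). Prkcz was at 0 in 4 wild-type and 5 Parg(110) embryos. None of these genes passed the edgeR test (smallest adjusted p outside Itga6 and Ptk2, 0.889).

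**Figure D5:**
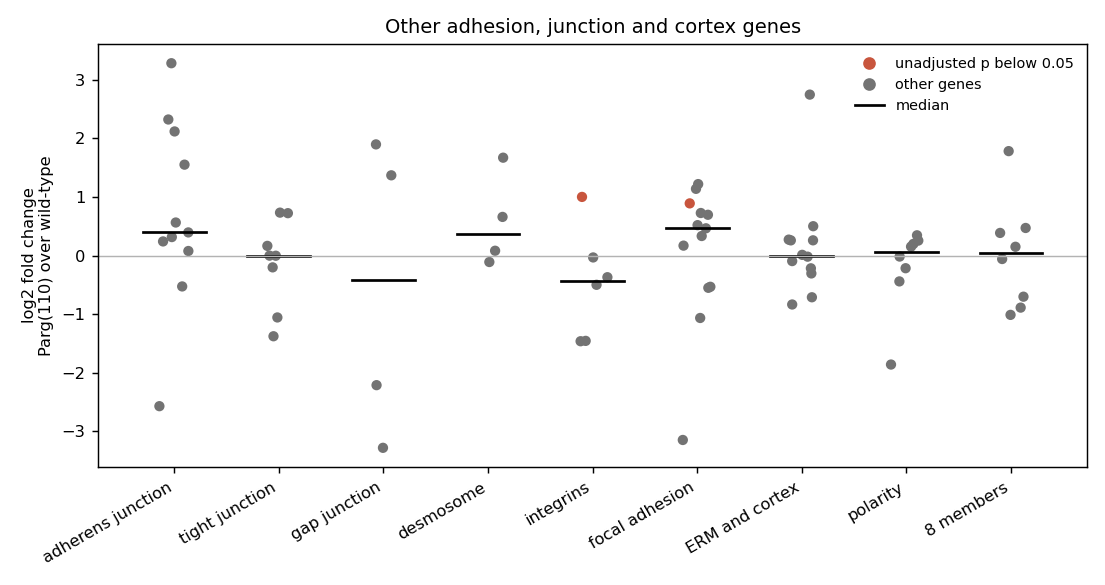
Log2 fold change of Parg(110) over wild-type embryos for 66 other adhesion, junction, cortex and polarity genes and the 8 members; each point is 1 gene and bars are medians. Points lie on both sides of 0 in every group, and the 2 genes in red, Itga6 (1.00) and Ptk2 (0.89), had an unadjusted p below 0.05.

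Across the 18 embryos, the transcripts most like each member were sought among 5001 abundant transcripts by Pearson's r of log2(CPM + 1), which is given as a description, since all values of an embryo share 1 library. Gja1 was most like Pafah1b2 (r = 0.82), Tjp1 like Rfwd3 (0.81), Cdh1 like Rimkla (0.80) and Ezr like Bod1 (0.78). Vcl was most like Sh3pxd2a (0.77), Ctnnb1 like Ywhaz (0.76), Itgb1 like Diaph3 (0.76) and Ctnna1 like Nr6a1 (0.72). The next in order were Crebrf, Dek, Dcaf12, Srsf3, Atxn1l, Pou2f2, Dock5 and Akt1, with r between 0.70 and 0.80. These are the highest values of a search in 5001 transcripts, and how high unrelated values would reach was not tested. Rank correlation (Spearman's rho) of the pairs ran from 0.51 (Ctnna1 with Akt1) to 0.82 (Gja1 with Pafah1b2), and was 0.61 for Ezr with Bod1.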

How the data were processed

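RNA of 18 single embryos was amplified with the WT-Ovation One-Direct kit and sequenced. The authors mapped reads to mm9 with RUM, allowing 1 mismatch, kept unique reads and deposited raw counts per RefSeq transcript; the labels also name DESeq 1.10.0. Counts carry no normalization, and amplification can exaggerate the spread between embryos. Symbols were matched for 26136 of 26823 transcripts (97.4%), and positions are those of GENCODE vM1 on mm9.

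Counts were scaled by TMM and tested with edgeR 4.0.16 (quasi-likelihood; at least 10 counts in at least 3 embryos, or in at least 1 for single embryos; threshold 0.1). SE was worked back from the test, as the absolute log2 fold change over the square root of F. Alternatives used DESeq2 1.42.0, limma 3.58.1, other filters, scalings and thresholds, sums per father, the embryo number as a replicate block, and fathers or embryos left out; for the genes of the list and the permutation tests, leaving out embryos was chosen after seeing the data. Scripts were tested on simulated data. All 153 library pairs differed beyond sampling noise (chi-square per degree of freedom at least 112.5), so no library was present more than once. Poisson intervals of counts and limits of detection cover counting error only. Intervals of fold changes came from the edgeR fit and take in the spread between embryos.

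Named genes were the members, the gene of smallest p in each direction of each group of the list, the 2 transcripts most like each member, and Rdx, chosen after its values were seen; not every gene that this rule picks is reported here. Members and lists were chosen with earlier results of these data known.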

Additional observations from a re-analysis of the deposited data

Results flagged for a closer look

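In 3 of 16 groups (8 transcripts, 2 groups of 9 embryos each) the highest embryo stood apart by more of the range than Dixon's 95% limit allows, and about 1 in 20 groups of normally distributed values does so by chance. Among all transcripts tested, 32.0% did so in wild-type and 35.2% in Parg(110) embryos. Gja1 in wild-type embryo 3-1 was at 40.1 CPM and the next at 14.96, a gap of 0.653 of the range. For Itgb1 in wild-type embryo 2-3 the gap was 0.574 (47.3 against 20.3 CPM, on 135 counts in the library with the lowest total). Ezr in Parg(110) embryo 7-3 had a gap of 0.738 (125 against 32.9 CPM, on 551 counts).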

How the results depend on the processing

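Of 512 alternative values, 472 kept their direction and their side of the threshold. The embryo number as a replicate block called 0 members and 0 genes of the list, and same-numbered embryos of the 2 groups were not paired (median correlation of their deviations 0.006, range -0.122 to 0.178). No alternative called a member between the groups. The list had 2 genes at an unadjusted p below 0.05, against 0 called. DESeq2 called 1 member in the embryos of father 6 (Ezr) and made 8 member calls in single embryos, all lower, where it called 1.31% and 4.15% of all transcripts and 90.5% and 92.0% of those calls were lower; the cause was not tested.

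The direction changed under some alternatives. For Cdh1 the log2 fold change lay between -0.43 and 0.10 with embryos and between -0.30 and 0.18 with fathers left out, for Ctnnb1 between -0.076 and 0.40 with fathers left out, and for Ezr, the largest value of the members, between -1.81 and 2.83. Gja1 turned to -0.52 with limma-voom, where the median of all transcripts was -0.19, and its permutation difference to -0.072 on the log2(CPM + 1) scale. The difference in means of Cdh1 lay between -10.1 and 3.17 CPM with embryos left out (permutation p at least 0.330). For Ctnna1 it lay between -36.4 and -20.9 CPM, past 0.05 in 6 of 18 cases, and was -30.0 CPM with p = 0.1 by exact permutation of father means. For Tjp1 it lay between 29.8 and 45.6 CPM, past 0.05 in 5 of 18 cases. Ezr could not be tested with a filter of 10 counts in 9 embryos. Ezr, Gja1 and Itgb1 had at most 3 counts in 10, 2 and 2 embryos.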
